A study of Mus musculus with 6 samples.

Results

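Translation initiation factor genes were examined in the RET mouse melanoma cell line carrying 1 short hairpin RNA (shRNA) against Angpt2, named Angpt2 shRNA-1, and in the same line carrying a non-targeting control shRNA. There were 3 cultures of each kind, labelled as biological replicates 1, 2 and 3 of the strain C57BL\6, and each had its own microarray. The genes were chosen by name: a row of the value table was taken where its annotation gave exactly 1 symbol beginning with Eif1, Eif2, Eif3, Eif4, Eif5 or Eif6, and the kinase genes beginning with Eif2ak were left out. This gave 47 genes of the 22180 genes measured, 1 row each, the row with the highest mean over the 6 arrays. All cells had been transduced with an shRNA and grown for 24 h in high-glucose DMEM with serum before lysis. The labels do not say whether either set of cells is a single clone. The control titles carry the word GFP, which the labels do not explain. With 1 hairpin against Angpt2, effects of Angpt2 loss, of this hairpin and of differences between the transduced cell populations cannot be told apart.

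Initiation is the step at which a ribosome is assembled on an mRNA. The factors eIF1, eIF1A and eIF3 prepare the small subunit, eIF2 brings the initiator tRNA, the cap-binding complex of eIF4E, eIF4G and the helicase eIF4A brings the mRNA, and eIF5 and eIF5B complete joining of the large subunit. Supply of initiator tRNA is throttled when eIF2 is phosphorylated, because its exchange factor eIF2B is then blocked, and cap binding is throttled by the eIF4E-binding proteins, which mTORC1 inactivates by phosphorylation. Melanoma cells are known to depend on both control points, which act mainly on the proteins and are not seen by an array of transcripts.

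Values are normalized array intensities, given per culture, and differences are log2 fold changes of Angpt2 shRNA-1 over control from a limma fit across all 22180 genes, with Benjamini-Hochberg adjustment over all of them. In bulk cultures a change in the number of expressing cells and a change in RNA per cell cannot be told apart. Intensities of different genes come from different probes and are set against each other only coarsely, to tell bright genes from dim ones. Without detection calls a dim gene cannot be told from background. Array medians ranged from 74.6 to 76.3. Melanocyte markers were bright, with 6-array means from 1605 to 9390 for 8 genes including Mitf, Sox10, Tyr and Dct, while the means of 6 endothelial, 6 fibroblast, 6 immune and 5 keratinocyte markers lay between 51.6 and 147. Angpt2 itself was at 100.2, 122 and 122 in Angpt2 shRNA-1 replicates 1, 2 and 3, against 195, 372 and 326 in control replicates 1, 2 and 3 (log2 fold change -1.33, SE 0.21, adjusted p = 1.00 over all genes and exact two-sided permutation p = 0.1, the smallest possible with 3 against 3). Each Angpt2 shRNA-1 value was below each control value, but Angpt2 passed the threshold over all genes only with the replicate number as a block (adjusted p = 0.046) or without control replicate 1 (adjusted p = 0.0116). The Angpt2 shRNA-1 values lay within the range of the non-melanocyte marker means, so the remaining signal cannot be told from background. With a pseudocount of 16 the log2 fold change of Angpt2 was -1.22.

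No initiation factor gene differed between Angpt2 shRNA-1 and control cells by the test across all genes. At an adjusted p of 0.05 limma called 0 of 47, against 0% of all genes, and the count stayed at 0 in each of the 10 alternative fits and the 6 fits without 1 array. At an unadjusted p under 0.05 it was 0 of 47 members, against 3.76% of all genes (1.52% higher and 2.24% lower in Angpt2 shRNA-1 cells). This unadjusted count was 0 or 1 in the other fits except without control replicate 3, where it was 4 (Eif2a, Eif2s2, Eif3e and Eif4a2) against 5.75% of all genes. Of the 47 genes 23 had positive and 24 negative log2 fold changes, with 48.9% positive against 45.2% of all genes. The median was -0.00 for the members and -0.01 for all genes, and the median absolute log2 fold change was 0.07 in both. Within replicate numbers 1, 2 and 3 the median difference over the members was -0.02, 0.01 and -0.03.

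The intervals limit how large a difference could have been missed. For 43 of 47 genes the 95% confidence interval of the log2 fold change lay within 0.5 on either side of 0, that is within 1.41-fold. The 4 others were Eif2s2, Eif4e2, Eif4ebp1 and Eif5a, whose intervals ran from -0.69 to 0.12, from -0.34 to 0.67, from -0.69 to 0.48 and from -0.34 to 1.38. Over all genes the interval lay within 0.5 for 20322 of 22180, a similar share. Eif2s3y, Eif4a3, Eif4a3l1 and Eif4e1b were as dim as the non-melanocyte markers, so their narrow intervals may not bound a true difference. Angpt2 shRNA-1 and control values did not overlap for 3 members, Eif4h, Eif4enif1 and Eif2c5, all lower in Angpt2 shRNA-1 cells, which is 6.38% of the members against 9.01% of all genes.

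**Figure D1:**
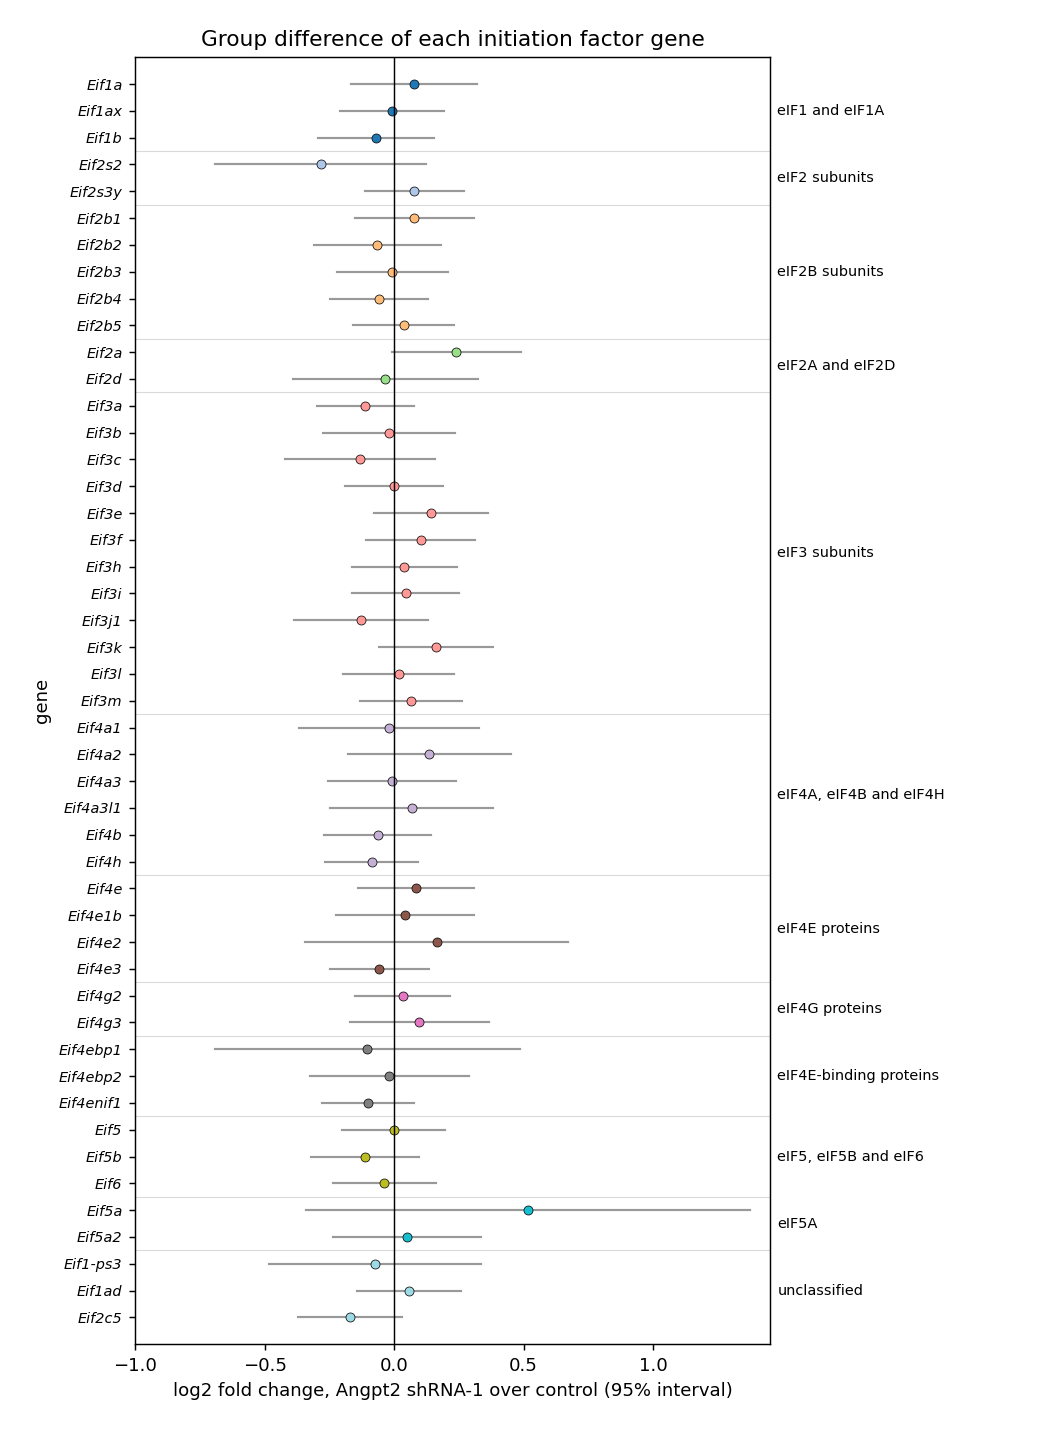
Log2 fold change of each of the 47 initiation factor genes (point) with its 95% confidence interval (line), Angpt2 shRNA-1 over control, 3 arrays each, ordered and coloured by factor class. Every interval includes 0, and Eif5a, Eif4ebp1, Eif4e2 and Eif2s2 have the widest ones.

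The start regions of these genes were read from RefSeq (GRCm38.p6), which held one for 36 of the 47 genes, as 250 bases before and 50 bases after the most upstream listed start. Their median GC content was 61.8%, against 56.3% over 17492 protein-coding genes. Both strands were searched for 5 motifs, and a gene was counted once however many matches it held or however these overlapped. The GC box GGGCGG, bound by Sp1-type factors, was in 26 of 36 windows (72.2%, against 46.3% of protein-coding genes). The ETS core CCGGAAG was in 12 of 36 (33.3%, against 11.9%), and the E-box CACGTG, bound by Myc and related factors, in 7 of 36 (19.4%, against 7.91%), namely Eif1b, Eif3a, Eif3f, Eif3k, Eif4a1, Eif4h and Eif5a2. The cAMP response element TGACGTCA and the CEBP-ATF composite TGATGCAA, which binds ATF4, were in 0 of 36 windows, against 2.33% and 0.903% of protein-coding genes. Both shares are so low that 0 of 36 does not set the members apart. Eif4ebp1, known as a target gene of ATF4, was among the members without a window and was not searched. These counts are a description of letters in the windows, which also differ in GC content, and were not tested. Shown are Eif5a, the member that varied most over the 6 arrays (chr11:69921909-69922208, minus strand), its paralogue Eif5a2, with a smaller SD (chr3:28781027-28781326, plus strand), Eif4e2, whose values were ordered much like those of Eif5a (chr1:87213661-87213960, plus strand), and Eif2a, the member with the smallest unadjusted p (chr3:58525571-58525870, plus strand). They run 5′ to 3′ on the gene's strand, with GC box, ETS core and E-box matches in capitals. Eif5a has 6 starts listed and Eif4e2 has 3, of which the most upstream is printed.
Eif5a: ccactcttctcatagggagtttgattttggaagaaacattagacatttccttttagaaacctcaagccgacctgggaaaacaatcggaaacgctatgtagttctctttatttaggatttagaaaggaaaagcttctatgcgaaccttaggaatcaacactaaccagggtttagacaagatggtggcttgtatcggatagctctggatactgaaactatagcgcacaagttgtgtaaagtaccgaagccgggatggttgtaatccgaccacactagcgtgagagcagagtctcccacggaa
Eif5a2: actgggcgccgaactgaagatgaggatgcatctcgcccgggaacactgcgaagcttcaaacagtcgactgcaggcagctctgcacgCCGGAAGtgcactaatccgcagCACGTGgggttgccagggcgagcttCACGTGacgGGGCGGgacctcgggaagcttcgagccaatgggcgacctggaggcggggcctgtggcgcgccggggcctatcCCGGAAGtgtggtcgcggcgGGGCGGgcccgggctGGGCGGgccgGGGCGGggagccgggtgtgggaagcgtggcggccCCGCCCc
Eif4e2: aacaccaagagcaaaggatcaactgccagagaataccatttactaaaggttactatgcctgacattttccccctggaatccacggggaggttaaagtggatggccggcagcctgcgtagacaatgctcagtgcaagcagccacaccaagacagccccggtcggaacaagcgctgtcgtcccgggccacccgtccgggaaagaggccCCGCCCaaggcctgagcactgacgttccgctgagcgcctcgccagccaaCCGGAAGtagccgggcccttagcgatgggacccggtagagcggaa
Eif2a: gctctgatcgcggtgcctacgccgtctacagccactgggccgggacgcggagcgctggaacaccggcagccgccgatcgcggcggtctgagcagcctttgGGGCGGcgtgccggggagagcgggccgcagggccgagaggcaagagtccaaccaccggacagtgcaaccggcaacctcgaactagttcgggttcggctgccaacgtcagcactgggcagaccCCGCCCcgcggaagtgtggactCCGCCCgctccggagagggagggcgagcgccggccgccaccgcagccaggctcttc
The printed Eif5a window holds none of these motifs, while that of Eif5a2 holds 2 E-boxes, 5 GC boxes and 2 ETS cores. The Eif2a window holds 3 GC boxes and the Eif4e2 window 1 GC box and 1 ETS core.

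The measured genes of proteins that open the small subunit for scanning were steady. The gene of eIF1 itself, Eif1, was not analysed here. Eif1a, which encodes a form of eIF1A, was at 709.7, 666 and 596 in Angpt2 shRNA-1 replicates 1, 2 and 3, against 550.3, 663 and 659 in control replicates 1, 2 and 3. The groups overlapped, and the log2 fold change was 0.08 (SE 0.11, adjusted p = 1.00), or -0.01 without control replicate 1. Eif1ax, the X-linked copy, was at -0.01 (SE 0.09) with 1129 to 1265 over the 6 arrays, and Eif1b, a close relative of eIF1, was at -0.07 (SE 0.10) with 628 to 794.

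Among the eIF2 genes, Eif2s2 varied more than most members. It encodes the beta subunit, which takes part in tRNA binding and contacts eIF5 and eIF2B. Its intensity was 232, 335 and 332 in Angpt2 shRNA-1 replicates 1, 2 and 3 and 402, 410.3 and 282 in control replicates 1, 2 and 3. The lowest value was Angpt2 shRNA-1 replicate 1 and the highest control replicates 1 and 2, with control replicate 3 below the other Angpt2 shRNA-1 arrays. The log2 fold change was -0.28 (SE 0.18, adjusted p = 1.00), with -0.80, -0.29 and 0.23 within replicate numbers 1, 2 and 3. It was -0.11 without Angpt2 shRNA-1 replicate 1 and -0.46 without control replicate 3. Eif2s3y, the Y-linked gene of the gamma subunit, was dim at 49.8 to 56.2 over the 6 arrays and cannot be told from background. The alpha subunit gene Eif2s1, which carries the regulatory phosphorylation site, and Eif2s3x were not analysed here.

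The 5 subunit genes of eIF2B, the exchange factor that reloads eIF2 with GTP, gave 0 calls. Their log2 fold changes ran from -0.06 to 0.08 with a median of -0.01, and their SD over the 6 arrays from 0.07 to 0.14. Eif2b1, the regulatory alpha subunit, had the largest absolute value. Its intensity was 729.7, 739.6 and 633 in Angpt2 shRNA-1 replicates 1, 2 and 3, against 629, 632 and 732 in control replicates 1, 2 and 3. Both groups held high and low arrays, and the log2 fold change was 0.08 (SE 0.10). The others were Eif2b2 at -0.06 (SE 0.11), Eif2b3 at -0.01 (SE 0.10), Eif2b4 at -0.06 (SE 0.08) and Eif2b5, the catalytic epsilon subunit, at 0.04 (SE 0.09). Without control replicate 1 Eif2b2 was at 0.02 and Eif2b5 at -0.02.

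Eif2a had the smallest unadjusted p of the family. It encodes eIF2A, a single-chain protein that can bind initiator tRNA apart from eIF2 and is not the alpha subunit of eIF2. Its intensity was 734, 627 and 791 in Angpt2 shRNA-1 replicates 1, 2 and 3, against 619, 552 and 647 in control replicates 1, 2 and 3. Within each replicate number the Angpt2 shRNA-1 array was higher, by 0.25, 0.18 and 0.29 on the log2 scale, but Angpt2 shRNA-1 replicate 2 lay below control replicate 3, so the groups overlapped. The log2 fold change was 0.24 (SE 0.11, 95% interval -0.01 to 0.49, unadjusted p = 0.0558, adjusted p = 1.00, exact permutation p = 0.2). Blocking on the replicate number gave an unadjusted p of 0.0239, and the call over all genes did not change. Eif2a ranked number 951 of 22180 genes by p. Eif2d, which encodes another protein that delivers tRNA to ribosomes and also acts in recycling, was at 393, 338 and 408 in Angpt2 shRNA-1 replicates 1, 2 and 3, against 451, 297 and 435 in control replicates 1, 2 and 3. Control replicate 2 was the lowest array for both genes. The log2 fold change of Eif2d was -0.03 (SE 0.16), and it was 0.07 without control replicate 1 and -0.23 without control replicate 2.

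Of the 12 measured eIF3 subunit genes, which together build the largest initiation factor, 8 were positive and 4 negative, none past the test. Their log2 fold changes ran from -0.13 to 0.16 with a median of 0.03. Their SD over the 6 arrays was 0.06 to 0.19. The median deviation of the class from the 6-array mean was -0.03, 0.04 and -0.01 in Angpt2 shRNA-1 replicates 1, 2 and 3 and -0.01, -0.07 and -0.04 in control replicates 1, 2 and 3.

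Eif3k, a small peripheral subunit, had the largest value. It was at 1357, 1559 and 1597 in Angpt2 shRNA-1 replicates 1, 2 and 3, against 1426, 1245 and 1358 in control replicates 1, 2 and 3. The groups overlapped through Angpt2 shRNA-1 replicate 1, and the log2 fold change was 0.16 (SE 0.10, adjusted p = 1.00). Eif3e, also known as Int6 and the site of mouse mammary tumour virus insertions, was at 1346, 1441 and 1395 in Angpt2 shRNA-1 replicates 1, 2 and 3, against 1195, 1180.4 and 1428 in control replicates 1, 2 and 3. Control replicate 3 was as high as the Angpt2 shRNA-1 arrays, and the log2 fold change was 0.14 (SE 0.10). It was 0.23 without control replicate 3 and 0.09 without control replicate 2.

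Eif3a, the largest core subunit, was at 2932, 2951 and 2806 in Angpt2 shRNA-1 replicates 1, 2 and 3, against 3282, 3168 and 2944 in control replicates 1, 2 and 3. Control replicate 3 fell within the Angpt2 shRNA-1 range, and the log2 fold change was -0.11 (SE 0.08). Eif3j1, a loosely bound subunit, was at 154, 173 and 154 in Angpt2 shRNA-1 replicates 1, 2 and 3, against 160.4, 163 and 206 in control replicates 1, 2 and 3. Its log2 fold change of -0.13 (SE 0.11) rested on control replicate 3, without which it was -0.01. The core subunit gene Eif3c was also at -0.13 (SE 0.13), with 4223 on control replicate 1 and 3024 to 3257 on the other 5 arrays, and it was at 0.02 without control replicate 1.

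The other 7 subunits moved less. They were Eif3f at 0.10 (SE 0.09), Eif3m at 0.07 (SE 0.09), Eif3h at 0.04 (SE 0.09), Eif3i at 0.04 (SE 0.09), Eif3l at 0.02 (SE 0.09), Eif3b at -0.02 (SE 0.11) and Eif3d at 0.00 (SE 0.08). Eif3d, which can itself bind the cap of some mRNAs, spanned 2244 to 2498 over the 6 arrays.

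**Figure D2:**
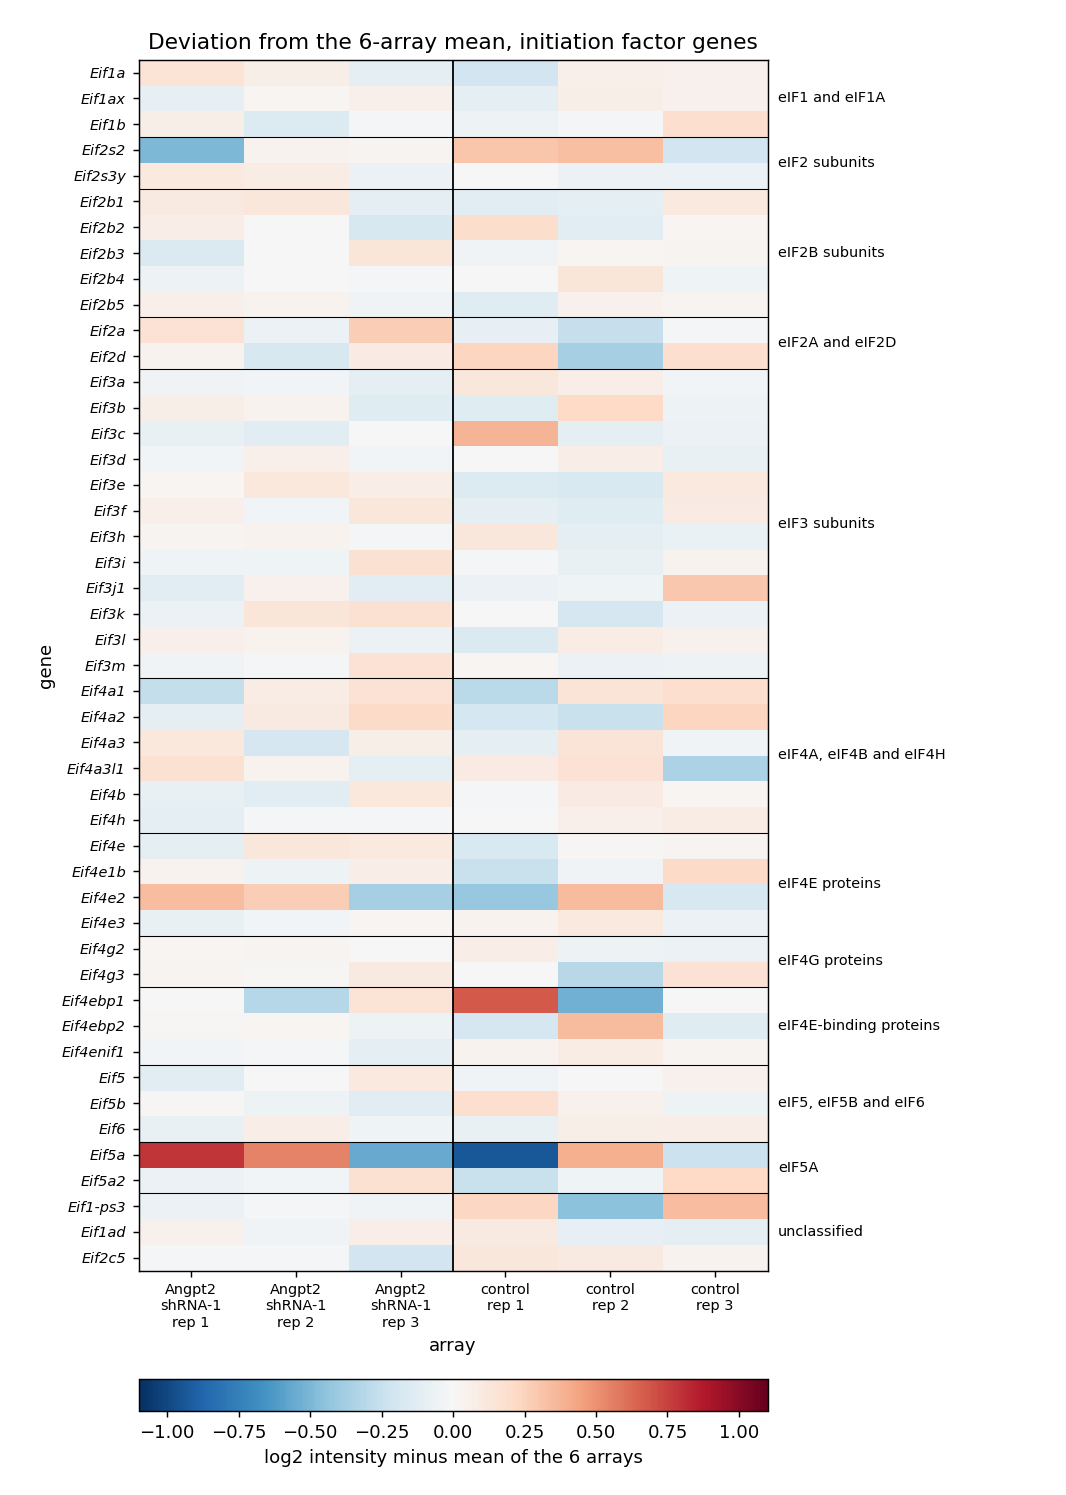
Log2 intensity of each of the 47 genes on each array minus the gene's mean over the 6 arrays (colour), with Angpt2 shRNA-1 arrays on the left and control arrays on the right and genes ordered by factor class. Most rows are pale, and the strongest colours are in Eif5a, at 0.78 on Angpt2 shRNA-1 replicate 1 and -0.93 on control replicate 1, and in Eif4ebp1.

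None of the RNA helicase genes passed the test. Eif4a1, the main helicase of the cap-binding complex, was at 5073, 6436 and 6789 in Angpt2 shRNA-1 replicates 1, 2 and 3, against 4948, 6714 and 6942 in control replicates 1, 2 and 3. Both replicate 1 arrays were low, and within replicate numbers 1, 2 and 3 the log2 difference was 0.04, -0.06 and -0.03. Eif4a2, the related helicase, was at 756, 864 and 934 in Angpt2 shRNA-1 replicates 1, 2 and 3, against 708, 683 and 953 in control replicates 1, 2 and 3, with a log2 fold change of 0.14 (SE 0.14) that was 0.05 without control replicate 2. The other 2 Eif4a2 rows of the array gave 0.20 and -0.02, and a dimmer Eif4a1 row gave -0.00. On that dimmer Eif4a1 row replicate 2, not replicate 1, was the lowest array of each group. Eif4a3, which encodes the helicase of the exon junction complex, was at -0.01 (SE 0.11). It spanned 113 to 143 over the 6 arrays, within the range of the non-melanocyte marker means. Eif4a3l1, a gene like Eif4a3, was at 64.7 to 92.3, too dim to be told from background.

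The helicase cofactor gene Eif4h had groups that did not overlap. It was at 2310.0, 2455 and 2450.4 in Angpt2 shRNA-1 replicates 1, 2 and 3, against 2470.0, 2568 and 2627 in control replicates 1, 2 and 3. The gap between the groups was small, and the log2 fold change was -0.09 (SE 0.08, adjusted p = 1.00, exact permutation p = 0.1). Eif4b, the other cofactor, was at -0.06 (SE 0.09) with 2134 to 2520.1 over the 6 arrays.

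Of the cap-binding proteins, Eif4e was at 0.08 (SE 0.10), with 1289.8, 1507 and 1493 in Angpt2 shRNA-1 replicates 1, 2 and 3, against 1232, 1400.4 and 1412 in control replicates 1, 2 and 3. Both replicate 1 arrays were the lowest of their group. Eif4e2 encodes 4EHP, a cap-binding protein that does not bind eIF4G and represses mRNAs together with Gigyf2. It was at 860.5, 817 and 527 in Angpt2 shRNA-1 replicates 1, 2 and 3, against 507, 864 and 602 in control replicates 1, 2 and 3. Each group held both high and low arrays, and the log2 fold change was 0.16 (SE 0.22, adjusted p = 1.00), -0.01 without control replicate 1 and 0.39 without Angpt2 shRNA-1 replicate 3. Eif4e3 was at -0.06 (SE 0.08), and Eif4e1b, known from oocytes, was dim at 60.5 to 82.8 and cannot be told from background.

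Both measured eIF4G genes were positive but not past the test. Eif4g3, which encodes a scaffold of the cap-binding complex, was at 534, 528 and 559.6 in Angpt2 shRNA-1 replicates 1, 2 and 3, against 523, 423 and 583 in control replicates 1, 2 and 3. The log2 fold change of 0.10 (SE 0.12) rested on the low control replicate 2, without which it was -0.03. Eif4g2, also called Dap5, which lacks the eIF4E-binding site, was at 0.03 (SE 0.08). Its SD of 0.05 over the 6 arrays was the lowest of the 47 genes. Eif4g1 was not analysed here.

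Repressors of cap binding differed in how much they varied. Eif4ebp1, which encodes 4E-BP1, was at 1129.4, 904 and 1246 in Angpt2 shRNA-1 replicates 1, 2 and 3, against 1797, 777 and 1129.6 in control replicates 1, 2 and 3. The highest and the lowest array were both controls, and all Angpt2 shRNA-1 arrays lay between them. The log2 fold change was -0.10 (SE 0.26, adjusted p = 1.00), and it was 0.21 without control replicate 1 and -0.40 without control replicate 2. Eif4ebp2 had the opposite pattern in controls, with 746 on control replicate 1 and 1080.2 on control replicate 2, and was at -0.02 (SE 0.14). Eif4enif1 encodes 4E-T, which carries eIF4E into the nucleus and to processing bodies. It was at 461, 466 and 435 in Angpt2 shRNA-1 replicates 1, 2 and 3, against 483, 498 and 479 in control replicates 1, 2 and 3. All Angpt2 shRNA-1 arrays were below all controls, by a log2 fold change of -0.10 (SE 0.08, adjusted p = 1.00, exact permutation p = 0.1).

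Eif4ebp1 is known as a target gene of ATF4, the transcription factor made when eIF2 is phosphorylated, so its values are set beside 12 ATF4 target genes. Their median deviation from the 6-array mean was 0.04, -0.60 and 0.25 in Angpt2 shRNA-1 replicates 1, 2 and 3, and 1.05, -0.81 and -0.10 in control replicates 1, 2 and 3. The deviation of Eif4ebp1 was 0.01, -0.31 and 0.15 in Angpt2 shRNA-1 replicates 1, 2 and 3, and 0.68, -0.53 and 0.01 in control replicates 1, 2 and 3. Both were highest on control replicate 1, then on Angpt2 shRNA-1 replicate 3, and lowest on control replicate 2, then on Angpt2 shRNA-1 replicate 2. Asns, the asparagine synthetase gene, was at 2042, 1462 and 2244 in Angpt2 shRNA-1 replicates 1, 2 and 3, against 3556, 1119 and 1853 in control replicates 1, 2 and 3. Trib3, a pseudokinase gene induced by ATF4 and CHOP, was at 330.0, 154 and 468 in Angpt2 shRNA-1 replicates 1, 2 and 3, against 1124, 149 and 299 in control replicates 1, 2 and 3. Asns and Trib3 were chosen after their values were seen, and other genes of the list were ordered differently. Psat1 was highest on Angpt2 shRNA-1 replicate 1 and lowest on Angpt2 shRNA-1 replicate 2. Ddit4 and Vldlr were highest on Angpt2 shRNA-1 replicate 3, but Vldlr was dim at 58.3 to 73.7 and cannot be told from background. Of the 12 ATF4 targets 0 passed the test, with 2 positive and 10 negative and a median log2 fold change of -0.13. This median turned sign with single arrays: leaving out Angpt2 shRNA-1 replicate 2 gave 0.07, while dropping control replicate 1 gave 0.27 and dropping control replicate 2 gave -0.58. The largest was Slc7a11, the cystine transporter gene, at -0.61 (SE 0.58), or 0.20 without control replicate 1.

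**Figure D3:**
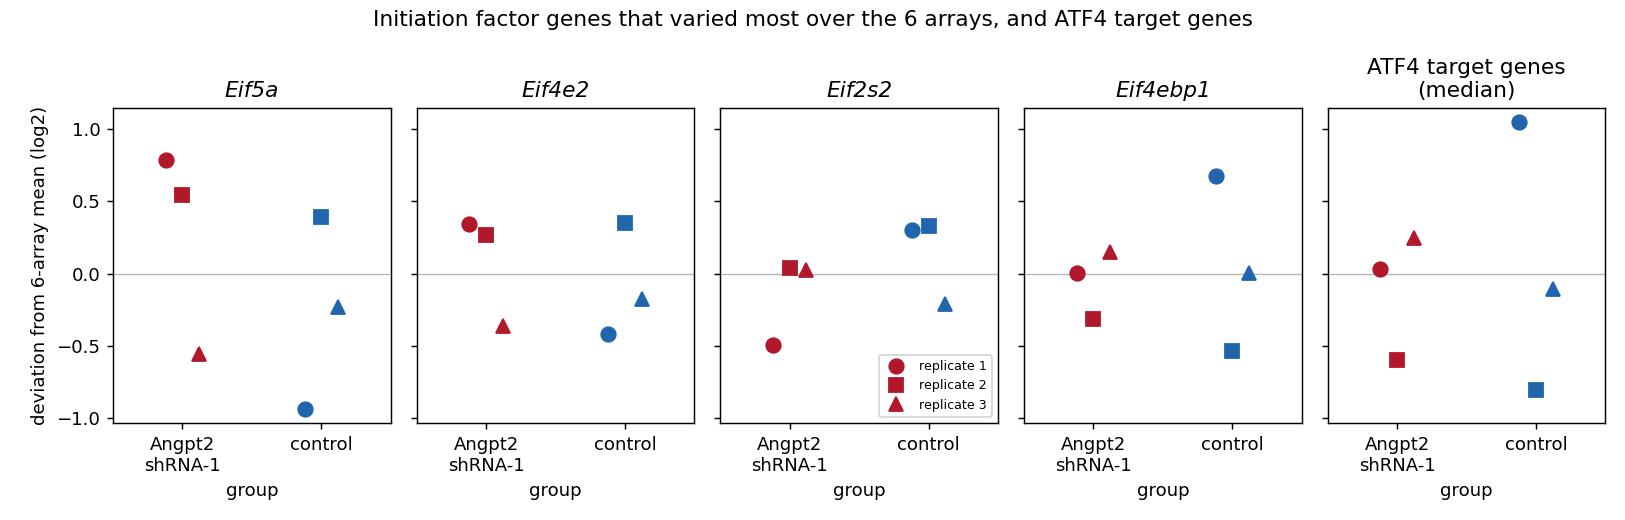
Deviation from the 6-array mean (log2) of the 4 initiation factor genes with the largest SD over the 6 arrays and the median deviation of 12 ATF4 target genes, with Angpt2 shRNA-1 arrays left (red) and control arrays right (blue) and marker shapes for replicate numbers. Eif5a and Eif4e2 are lowest on control replicate 1, where Eif4ebp1 and the median of the ATF4 targets are highest.

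None of the late-acting factors passed the test, and all 3 log2 fold changes were negative. Eif5b, the GTPase gene for subunit joining, was at 756, 722 and 691 in Angpt2 shRNA-1 replicates 1, 2 and 3, against 852, 774 and 721 in control replicates 1, 2 and 3. Each Angpt2 shRNA-1 array was below the control of its number, the groups overlapped, and the log2 fold change was -0.11 (SE 0.09). Eif5, the GTPase activator of eIF2, was at -0.00 (SE 0.09) and Eif6, which keeps free large subunits from joining, at -0.04 (SE 0.09). The 6 arrays spanned 1782 to 2069 for Eif5 and 1115 to 1238 for Eif6.

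Eif5a was the most variable member. It encodes eIF5A, the protein that carries the modified residue hypusine and helps ribosomes through difficult peptide bonds and termination. Its intensity was 2323, 1971 and 921 in Angpt2 shRNA-1 replicates 1, 2 and 3, against 707, 1767 and 1148 in control replicates 1, 2 and 3. The highest arrays were Angpt2 shRNA-1 replicates 1 and 2 and control replicate 2, and the lowest was control replicate 1, so high and low arrays occurred in both groups. Over the 6 arrays the highest value was 3.29 times the lowest. The log2 means were 10.66 ± 0.71 in Angpt2 shRNA-1 and 10.14 ± 0.66 in control cells (SD, n = 3 each), and the log2 fold change of 0.52 (SE 0.38, adjusted p = 1.00, exact permutation p = 0.4) was smaller than the spread within each group. Within replicate numbers 1, 2 and 3 the difference was 1.72, 0.16 and -0.32. Leaving out Angpt2 shRNA-1 replicate 3 gave 0.92 (unadjusted p = 0.019), and leaving out Angpt2 shRNA-1 replicate 1 gave 0.26. Dropping a control array gave 0.18 for replicate 1 and 0.84 for replicate 2. In none of these fits did Eif5a pass limma's test over all genes.

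The paralogue Eif5a2 had a narrower range, 227 to 313 over the 6 arrays, and was at 0.05 (SE 0.13). Within replicate numbers 1, 2 and 3 its difference was 0.18, 0.02 and -0.06, and control replicate 1 was its lowest array, as for Eif5a. Control replicate 1, then Angpt2 shRNA-1 replicate 3 and control replicate 3, were the 3 lowest arrays for both Eif5a and Eif4e2. The paired order is a description of 6 arrays and was noted after the values were seen.

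The 3 members outside the factor classes were named by the rule only. Eif2c5 is annotated in RefSeq as a long non-coding RNA with the synonym Ago5, a name of the Argonaute family. It was at 258, 257 and 225 in Angpt2 shRNA-1 replicates 1, 2 and 3, against 284, 279 and 268 in control replicates 1, 2 and 3. The groups did not overlap, and the log2 fold change was -0.17 (SE 0.09, unadjusted p = 0.0859, adjusted p = 1.00, exact permutation p = 0.1). Eif1-ps3, a pseudogene of Eif1 whose probes may also bind transcripts of near-identical copies, was at 434, 451 and 444 in Angpt2 shRNA-1 replicates 1, 2 and 3, against 533, 332 and 575 in control replicates 1, 2 and 3. The 3 control arrays spread widely around the tight Angpt2 shRNA-1 arrays, and the log2 fold change was -0.08 (SE 0.18). Eif1ad, which encodes a protein with an eIF1A-like domain, was at 0.06 (SE 0.09).

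The median member was as steady as the median gene. Of the 47 members 44 lay above the median level of all genes, so the values over all genes include many dimmer genes. The median SD over the 6 arrays was 0.12 for the members and 0.12 for all genes. Of the members 19 had an SD under 0.1 (40.4%, against 32.5% of all genes), and 5 had an SD over 0.25, namely Eif5a (0.68), Eif4ebp1 (0.42), Eif4e2 (0.36), Eif2s2 (0.31) and Eif1-ps3 (0.28), which is 10.6% against 6.42%. Control replicates 1 and 2 were most often the highest or lowest array, for 24 and 23 of 47 members (51.1% and 48.9%, against 45.3% and 40.4% of all genes), and Angpt2 shRNA-1 replicate 2 least often, for 7 (14.9%, against 27.3%).

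By factor class, the median log2 fold change was 0.28 for the 2 eIF5A genes, through Eif5a, 0.10 for eIF2A and eIF2D, 0.06 for the 4 eIF4E and for the 2 eIF4G genes, and 0.03 for eIF3. It was -0.01 for eIF1 and eIF1A, for eIF2B and for the helicases with their cofactors, -0.04 for eIF5, eIF5B and eIF6, and -0.10 for the 2 eIF2 subunits and the 3 eIF4E-binding proteins. Within replicate numbers 1, 2 and 3 the median of the eIF5A class was 0.95, 0.09 and -0.19, and that of eIF2A and eIF2D was 0.02, 0.19 and 0.10. With 1 array left out, the class median ranged from 0.06 to 0.45 for eIF5A (lowest without control replicate 1), from -0.03 to 0.19 for eIF2A and eIF2D (lowest without control replicate 2) and from -0.20 to -0.03 for the eIF2 subunits (lowest without control replicate 3). It ranged from -0.03 to 0.12 for eIF4E (lowest without control replicate 1) and from -0.01 to 0.11 for eIF4G (lowest without control replicate 2). Differences between classes were not tested, since the classes hold few genes and share the same 6 arrays.

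**Figure D4:**
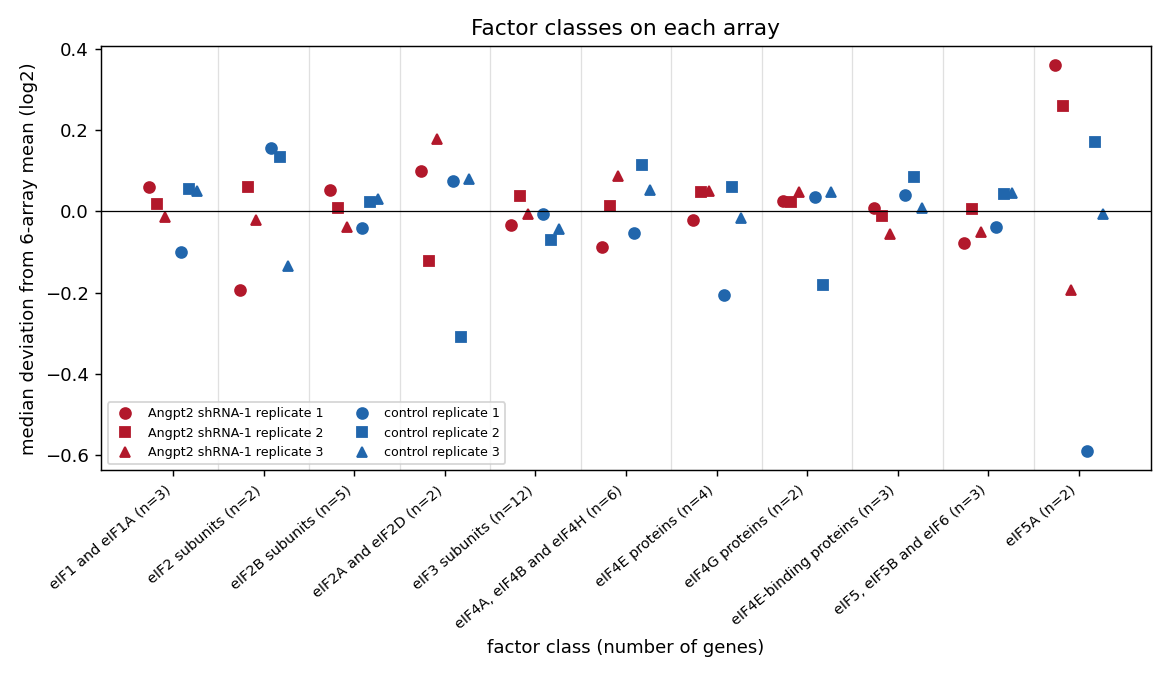
Median deviation from the 6-array mean (log2) of each of the 11 factor classes on each array, Angpt2 shRNA-1 in red left of control in blue, with marker shapes for replicate numbers and the number of genes per class. Among the eIF3, eIF2B, eIF4E-binding and eIF5, eIF5B and eIF6 classes the value farthest from 0 is 0.08, on control replicate 2, while the eIF5A class is at -0.59 on control replicate 1. The eIF4E-binding median hides opposite deviations on control replicates 1 and 2, of 0.68 and -0.53 for Eif4ebp1 and -0.19 and 0.35 for Eif4ebp2.

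Other genes of the pathway were called as rarely. Among the 7 genes for eIF2 kinases, their inhibitor and eIF2 phosphatase subunits, 0 passed, with 3 positive, 4 negative and a median log2 fold change of -0.01. The groups did not overlap for 3 of the 7, against 9.01% of all genes, and these genes were chosen once their values had been seen. Eif2ak3, the endoplasmic reticulum stress kinase PERK, was at 406, 357 and 369 in Angpt2 shRNA-1 replicates 1, 2 and 3, against 327, 281 and 356 in control replicates 1, 2 and 3 (0.24, SE 0.11, unadjusted p = 0.0535). Eif2ak4, the amino acid sensor GCN2, was at 233, 212 and 244 in Angpt2 shRNA-1 replicates 1, 2 and 3, against 199, 201 and 201 in control replicates 1, 2 and 3 (0.19, SE 0.09, unadjusted p = 0.0506). Impact, which encodes an inhibitor of GCN2, was at 419, 449 and 389 in Angpt2 shRNA-1 replicates 1, 2 and 3, against 468, 518 and 499 in control replicates 1, 2 and 3 (-0.24, SE 0.09, unadjusted p = 0.024). Each of these 3 had an adjusted p of 1.00. They kept their sign in every alternative fit and without any 1 array. Eif2ak1, the heme-regulated kinase, was at -0.01 (SE 0.08) and Eif2ak2, the double-stranded RNA kinase PKR, at -0.06 (SE 0.11). Ppp1r15a, the inducible phosphatase subunit GADD34, had the largest value of this list at -0.46 (SE 0.25), with 260.4 on control replicate 1 and 109.8 to 141 on the other 5 arrays, and was at -0.12 without control replicate 1. Its constitutive relative Ppp1r15b was at 0.02 (SE 0.17). The Ppp1r15a values on the 5 arrays other than control replicate 1 lay within the range of the non-melanocyte marker means, so they cannot be told from background.

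In the remaining lists 0 genes passed at an adjusted p of 0.05 or at an unadjusted p under 0.05. Of 6 poly(A)-binding proteins and partners 2 were positive (median -0.05), and Pabpc4 had the largest value at -0.24 (SE 0.18), or -0.01 without control replicate 1. Pabpc4 was dim, at 87.6 to 155 over the 6 arrays. Of 10 other initiation and recycling genes 5 were positive (median -0.02), with Mknk1, a kinase of eIF4E, at 0.16 (SE 0.09). Mknk1 was also dim, at 125 to 157 over the 6 arrays. Elongation and termination factors were 4 positive of 11 (median -0.03), with Eef2k, the kinase that inhibits eEF2, at -0.31 (SE 0.20), or -0.06 without control replicate 1. Of 10 mTORC1 pathway genes 5 were positive (median -0.01), with Deptor, an mTOR inhibitor gene, at -0.30 (SE 0.14).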

How the data were processed

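Total RNA (100 ng per culture) was labelled with biotin and hybridised to Affymetrix Mouse Gene 2.0 ST arrays, per the labels' protocols. The deposited values are intensity on a linear scale, normalized by the authors as near-equal array medians show, by a method not given in the sources used here. Of 41345 rows, 23521 had 1 gene symbol and 6 values and gave 22180 genes. All 47 members were found in RefSeq by gene ID. Another 8 rows name an initiation factor together with other genes and were not used. In all, 7 protein-coding initiation factor genes have no row of their own here, namely Eif1, Eif2s1, Eif2s3x, Eif3g, Eif3j2, Eif4ebp3 and Eif4g1.

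Values were converted to log2 and compared with limma 3.58.1 (R 4.3.3), lmFit and eBayes, two-sided, threshold 0.05. The fit was tested on simulated data. The number of arrays limits the precision. Replicates are titled biological replicates 1, 2 and 3, and the titles do not say whether cultures of the same number were handled together. Deviations from group means correlated at 0.13, 0.21 and 0.14 for arrays of numbers 1, 2 and 3, so the block was also fitted. All 6 arrays correlated best with the array of their own number. Deviations are taken from the mean of the 3 arrays of a group, so these 6 matches are not independent of each other.

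Members and lists were chosen with earlier results of these data known. Values on all 6 arrays are given for the 10 members with the smallest p, the 6 with the largest SD and the largest of each class. Values on all 6 arrays of Eif4a1, Eif4e and Eif4h were added after they were seen. From each pathway list the gene with the largest absolute log2 fold change is named. Alternatives were the block, quantile normalization, median centring, 2 level filters (median and 33rd percentile), the mean of all rows, eBayes trend and robust, array weights, pseudocounts of 1 and 16, and each array left out.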

Additional observations from a re-analysis of the deposited data

How the results depend on the processing

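The number of initiation factor genes past the threshold was 0 under every alternative that was run. With the replicate number as a block, which rests on a pairing seen in the data only, Angpt2 stayed at -1.33 and passed, with 2 genes called in all, and the block changed no call of a member. With eBayes trend and robust options 1 gene was called. Without 1 array, Angpt2 ranged from -1.61 to -1.14 and the number of genes called from 0 to 2. The median over all members ranged from -0.01 to 0.03, that of eIF2A and eIF2D from -0.03 to 0.19, that of eIF5, eIF5B and eIF6 from -0.08 to -0.01, that of other initiation and recycling genes from -0.08 to 0.01 and that of mTORC1 pathway genes from -0.04 to 0.03. With array weights the median of elongation and termination factors was 0.00. Signs of uncalled genes near 0 turned with quantile normalization (Eif2b3 0.01, Eif4a3 0.01, Eif5 0.01), median centring (Eif5 0.00), the mean of all rows (Eif3d -0.07) and array weights (Eif4e1b -0.02, Eif4ebp2 0.00, Eif5a2 -0.03). Leaving out each array in turn was followed for 61 uncalled genes, which were the members and the named genes of the pathway lists. No such count over all genes is given. Log2 fold changes of both signs arose for 30 of the 61, among them Eif1a from -0.01 to 0.14, Eif1ax from -0.06 to 0.03, Eif1b from -0.12 to 0.00, Eif2b2 from -0.14 to 0.02, Eif2b3 from -0.08 to 0.07, Eif2b5 from -0.02 to 0.07, Eif2d from -0.23 to 0.07 and Eif3b from -0.09 to 0.09. With the same arrays left out, values ran for Eif3c from -0.22 to 0.02, Eif3d from -0.04 to 0.04, Eif3h from 0.00 to 0.11, Eif3i from -0.03 to 0.08, Eif3l from -0.06 to 0.06, Eif4a1 from -0.17 to 0.11, Eif4a3 from -0.07 to 0.08 and Eif4a3l1 from -0.09 to 0.16. Ranges of the same kind were found for Eif4e1b from -0.07 to 0.16, Eif4e2 from -0.01 to 0.39, Eif4g3 from -0.03 to 0.20, Eif4ebp1 from -0.40 to 0.21, Eif4ebp2 from -0.12 to 0.15, Eif5 from -0.05 to 0.05, Eif5a2 from -0.06 to 0.17 and Eif1-ps3 from -0.32 to 0.08. The remaining ranges were Asns from -0.45 to 0.39, Eif2ak1 from -0.05 to 0.03, Eif2ak2 from -0.17 to 0.00, Ppp1r15b from -0.17 to 0.12, Slc7a11 from -1.04 to 0.20 and Trib3 from -1.01 to 0.45. The causes were not tested. Low intensities limit Eif2s3y, Eif4a3, Eif4a3l1 and Eif4e1b, and in the pathway lists Pabpc4, Mknk1, Vldlr and most arrays of Ppp1r15a.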
